A study of Equus caballus with 28 samples.

Results

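The embryonic tissue and the pregnant endometrium face each other across the embryo–maternal interface in the horse, and their microRNAs (miRNAs) were compared 13 days after ovulation. The comparison used 5 embryo libraries and 5 pregnant endometrium libraries, chosen by their labels alone, of 28 small RNA libraries in the series. Each pair came from a pregnant cycle of a Warmblood mare that had received hCG and had been inseminated with fresh semen of the same stallion, and both groups share this treatment. The embryo was flushed from the uterus, its yolk sac fluid was aspirated and its capsule was removed, and the remaining embryonic tissue was stored. Which parts of the conceptus this tissue held is not given in the sources used here. The endometrium was a biopsy taken after the flush, so it held epithelium, stroma, vessels and blood in unknown shares. RNA of both tissues was extracted with the same kits. The replicate number names the pregnancy, and an embryo and a mare of the same number are different individuals.

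A miRNA is a short RNA cut from a hairpin precursor, which can yield a mature strand from its 5p and its 3p arm. It guides a silencing complex to messenger RNAs that match its seed, the stretch near its 5′ end, so that members of a family with a common seed share many targets. Many hairpins are cut from a common transcript, and some families are hallmarks of a cell state, such as the miR-302 cluster of pluripotent cells and the let-7 family of differentiated cells.

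The known mature miRNAs of the horse and the miRNAs predicted from these reads were analysed together, and 333 known and 144 predicted miRNAs had a read in the 10 libraries. The embryo libraries held 28204 to 44768 reads and the endometrium libraries 280065 to 590593. A floor of 3 reads therefore corresponded to 67.0 to 106 CPM (counts scaled to library size), here by library total, in embryos and to 5.08 to 10.7 CPM in endometrium, which covers counting error only. Embryo 1 stood apart from the other embryos. Predicted miRNAs took 36.3% of its reads, against 5.02% to 8.67% in embryos 2 to 5 and 0.697% to 1.06% in endometrium. Over 192 miRNAs of at least 100 CPM, its rank correlation with the other embryos was 0.405 to 0.704, against 0.868 to 0.951 among those 4, but over the 145 known miRNAs among them it was 0.902 to 0.95, against 0.95 to 0.966. Results are given without embryo 1 where that library changed them.

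Several lists of tissue markers separated the groups as the labels state, but not all did. The 8 miRNAs of the miR-302/miR-367 and miR-371/miR-372 clusters summed to 6875 reads in embryos and to 3 in endometrium. The smooth muscle and stroma list, miR-143 and miR-145, summed to 48 and 22485 reads, the mesenchyme list of 5 miRNAs to 81 and 30723, and the ciliated epithelium list of 4 to 155 and 16090. Epithelial miRNAs were abundant on both sides, with 21933 and 109114 reads over 6 members and a median of 128600 CPM by library total in embryos and 63830 in endometrium. The muscle list overlapped between the groups, with 70.9 to 193 CPM by library total in embryos and 11.8 to 167 in endometrium. The brain miRNA miR-124 had 0 reads in both groups, which allows no more than the floor. In bulk tissue, fewer cells of a type and less RNA per cell cannot be told apart.

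Differential expression was tested for the 359 miRNAs, 254 known and 105 predicted, that reached 1 CPM in at least 5 libraries. A miRNA was called where its level changed 2-fold or more and its false discovery rate (FDR, the Benjamini-Hochberg adjusted p of edgeR's quasi-likelihood test) did not exceed 0.05. By this rule 256 miRNAs differed, which is 71.3% of those tested, with 103 higher in the embryo (28.7%) and 153 lower (42.6%). For 194 miRNAs, or 54.0%, the 5 values of one group did not overlap the 5 of the other. The filter set part of this share, since 1 read exceeded 1 CPM in every library. A miRNA without a read in one group was tested only with a read in all 5 libraries of the other. Its values could then not overlap, as for the 48 set to bounds below. Most tested miRNAs were called, and the count of called members of a family is to be read against these shares.

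The split between higher and lower calls depended on how the libraries were scaled. The trimmed mean of M-values (TMM) gave embryo libraries factors of 1.46 to 1.85 and endometrium libraries 0.557 to 0.76, and placed the median log2 fold change of all tested miRNAs at -1.02, or at -0.88 when the 48 miRNAs without a read in one group were set to their bounds. With library totals alone that median was 0.30, a shift of 1.32, with 140 miRNAs higher and 94 lower. With the RLE method (median of ratios) it was -0.56, with 115 higher and 133 lower, and with upper-quartile factors -0.17, with 125 and 111. The 3 other scalings moved fold changes upward, which favours higher calls, and all 103 miRNAs called higher under TMM were also called higher there. Of the 153 called lower, 94, or 26.2% of those tested, kept the call under all 4 scalings. Below, CPM means TMM-normalized CPM, a log2 fold change is embryo over endometrium under TMM with its standard error (SE), and means are given ± SD with n = 5 per group. Bounds and ratios of scarce miRNAs also use TMM, and with library totals they are 2.58 times as large for miRNAs higher in the embryo and smaller by the same factor for those lower.

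**Figure D1:**
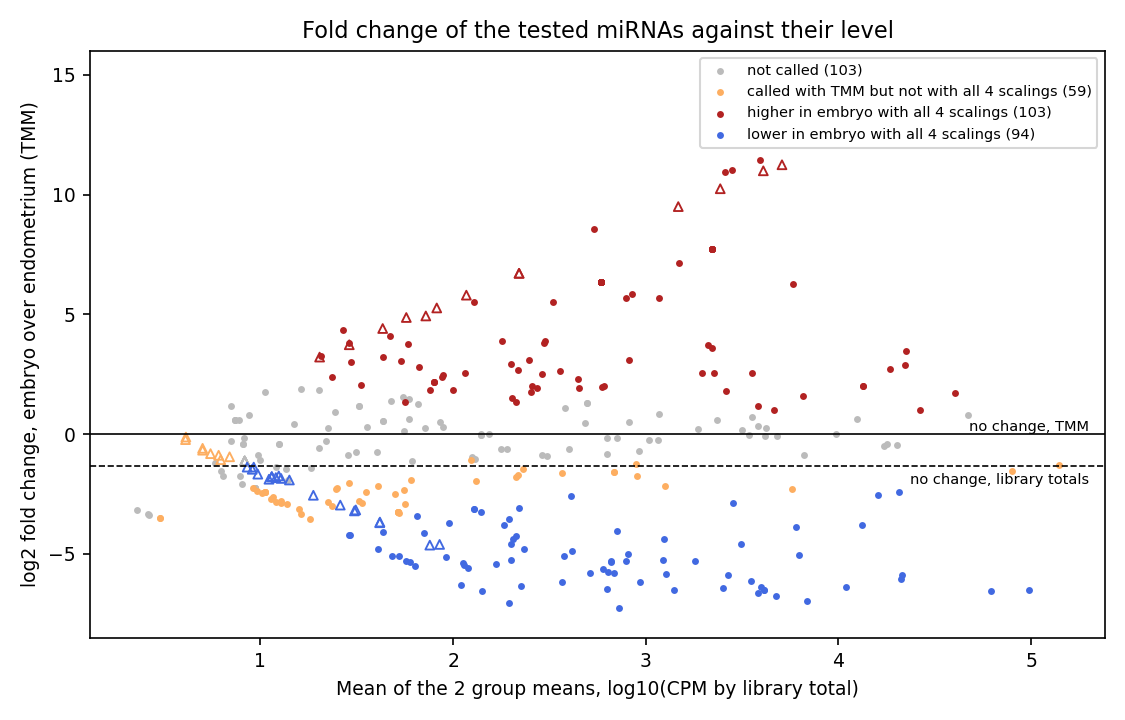
Log2 fold change, embryo over pregnant endometrium under TMM (vertical axis), of the 359 tested miRNAs against the log10 of their level, the mean of both group means in CPM by library total (horizontal axis). Triangles are miRNAs without a read in one group, drawn at their bound. The solid line marks no change under TMM and the dashed line no change under library totals, 1.32 lower. The 103 red points kept a higher and the 94 blue points a lower call under all 4 scalings, and the 59 orange points did not.

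The most abundant miRNAs differed between the tissues. Among known miRNAs, those of the embryo were miR-21, miR-200b, miR-26a, miR-16, miR-30e, miR-378, miR-182, miR-22, miR-148a and miR-200a, in this order of mean CPM by library total. Those of the endometrium were let-7a, miR-21, let-7c, miR-26a, miR-10a, let-7f, miR-10b, miR-200c, miR-27b and let-7g. Only miR-21 and miR-26a were on both lists. The 10 most abundant miRNAs of a library took 46.8%, 66.8%, 64.0%, 61.5% and 59.2% of the reads of embryos 1 to 5, and 74.3%, 71.7%, 75.7%, 69.6% and 66.6% of the endometrium libraries. The mean share was 59.7 ± 7.72% in embryos and 71.6 ± 3.63% in endometrium (exact two-sided permutation test, p = 0.0159). Without embryo 1 the embryo mean was 62.9 ± 3.28% (exact permutation p = 0.0317). Among known miRNAs alone the shares were 66.9 ± 2.67% and 72.3 ± 3.66%, a difference of -5.33 percentage points in place of -11.9 (exact permutation p = 0.0317).

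At an equal depth of 28204 reads, 253.5 ± 13.4 miRNAs had a read in the embryo and 218.9 ± 8.67 in the endometrium. The embryo libraries lay between 240.7 and 269.9 and the endometrium libraries between 208.1 and 228.4, without overlap, and the exact two-sided permutation test gave p = 0.00794, the smallest it can give for 5 against 5. For known miRNAs alone, thinned to their smallest total of 17953 reads, it was not detected, with 171.5 ± 8.45 against 164.5 ± 4.83 (exact permutation p = 0.143). This depth was lower, so these counts are not comparable with those above.

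**Figure D2:**
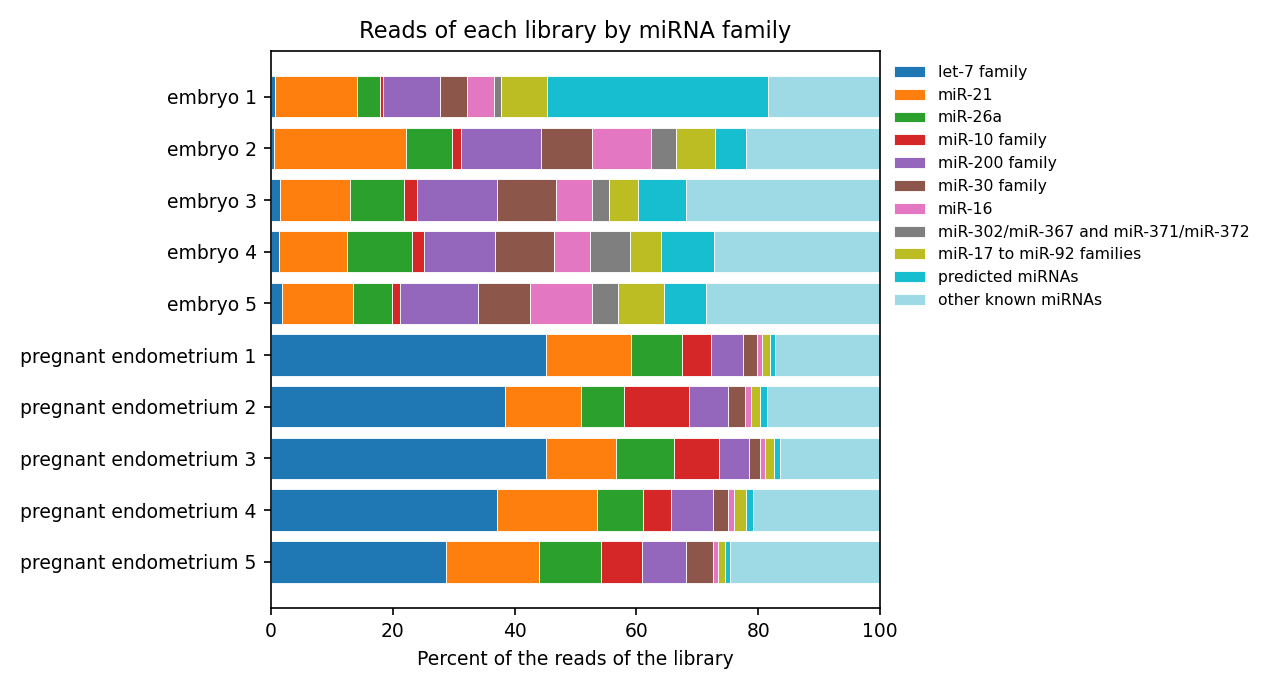
Percent of the reads of each library (horizontal axis) taken by 9 miRNA families or single miRNAs, by predicted miRNAs and by all other known miRNAs. The let-7 family took 28.8% to 45.2% of each endometrium library and 0.467% to 1.71% of each embryo library, and predicted miRNAs 36.3% of embryo 1.

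The miR-302/miR-367 cluster was high in the embryo and had almost no reads in the endometrium. It is transcribed as a unit in pluripotent cells and early embryonic tissue, where its members repress inhibitors of the cell cycle. Its most abundant member, miR-302d, had 1799, 8142, 5215, 6224 and 4290.5 CPM in embryos 1 to 5 and 0 in each endometrium library. With no read in the endometrium, it was at least 2034-fold higher in the embryo, a bound set by 3 reads over the 5 endometrium libraries. Its neighbour miR-302a had 1337, 5418, 3674, 4517 and 2682 CPM in embryos and 1 read in endometrium, in library 3, a ratio of 4142 (95% interval 742 to 163700.0). In every embryo miR-302d exceeded miR-302a. A like pattern held for miR-302b, with 1288, 4911, 2652, 3909.9 and 2590.0 CPM in embryos and no read in endometrium, at least 1211-fold. The least abundant of the tested members, miR-302c, had 243, 1260.4, 448, 854 and 576 CPM in embryos and 1 read in endometrium, in library 2, a ratio of 812 (95% interval 144 to 32240.0). Embryo 1 was the lowest and embryo 2 the highest of the embryos for all 4 of these miRNAs. The remaining member, miR-367, fell under the filter with 0, 1, 16, 19 and 4 reads in embryos 1 to 5 and none in endometrium. Thus 4 of the 4 tested members of 5 were called higher, with a median log2 fold change of 10.62 when the 2 members without an endometrium read were set to their bounds, against -0.88 over all tested miRNAs. The cluster took 1.99 ± 0.875% of the embryo reads.

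The miR-371/miR-372 cluster, known from embryonic stem cells and trophoblast, includes miR-372, which has the seed of miR-302, and behaved likewise. The embryos had 2601, 5694, 3010.5, 12381 and 7914 CPM of miR-372 and the endometrium none, at least 2421-fold. The other main member, miR-371-5p, had 948, 1116, 3261, 13999 and 5167 CPM in embryos and 1 read in endometrium, in library 2, a ratio of 5241 (95% interval 939 to 207200.0). Embryo 4 was highest for both and embryo 1 lowest, and without embryo 4 the log2 fold change of miR-371-5p moved from 11.42 to 10.39. The opposite arm, miR-371-3p, had only 7 reads, at least 1 in every embryo, and none in endometrium. All 3 tested members were called. In the other compartments of the series the same miRNAs followed the conceptus. By library total, miR-302d had a mean of 8146 CPM in embryos and 16760 in yolk sac fluid, and 1 read in all 5 libraries of pregnant uterine fluid and 1 in the 4 of cyclic uterine fluid. By library total, miR-372 had a mean of 10180 CPM in embryos and 21680 in yolk sac fluid, between 2271 and 84400, no read in pregnant uterine fluid and 3 reads in cyclic endometrium. Fluids were extracted with another kit than tissues, so the fluid values stand beside the tissue values without a test.

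A pair of X-linked hairpins, miR-105 and miR-767, lies within a gene of a GABA receptor subunit, GABRA3, and is otherwise known from germ cells and tumours. The 5p arm of miR-767 had 1118, 840.3, 3064, 1281 and 2773 CPM in embryos and no read in endometrium, at least 722-fold. The 3p arm had 22 reads in embryos, at least 1 in each, and none in endometrium, at least 29.2-fold, and both arms were called. The partner miR-105 was under the filter, with 25 reads in 4 of 5 embryos and none in endometrium. In yolk sac fluid, miR-767-5p had 18 reads, a mean of 377 CPM by library total. A brain-enriched miRNA, miR-138, was at 24.3, 58.0, 197, 247 and 196 CPM in embryos and had no read in endometrium, at least 55.8-fold. It was among the 10 known miRNAs with the largest fitted increase.

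**Figure D3:**
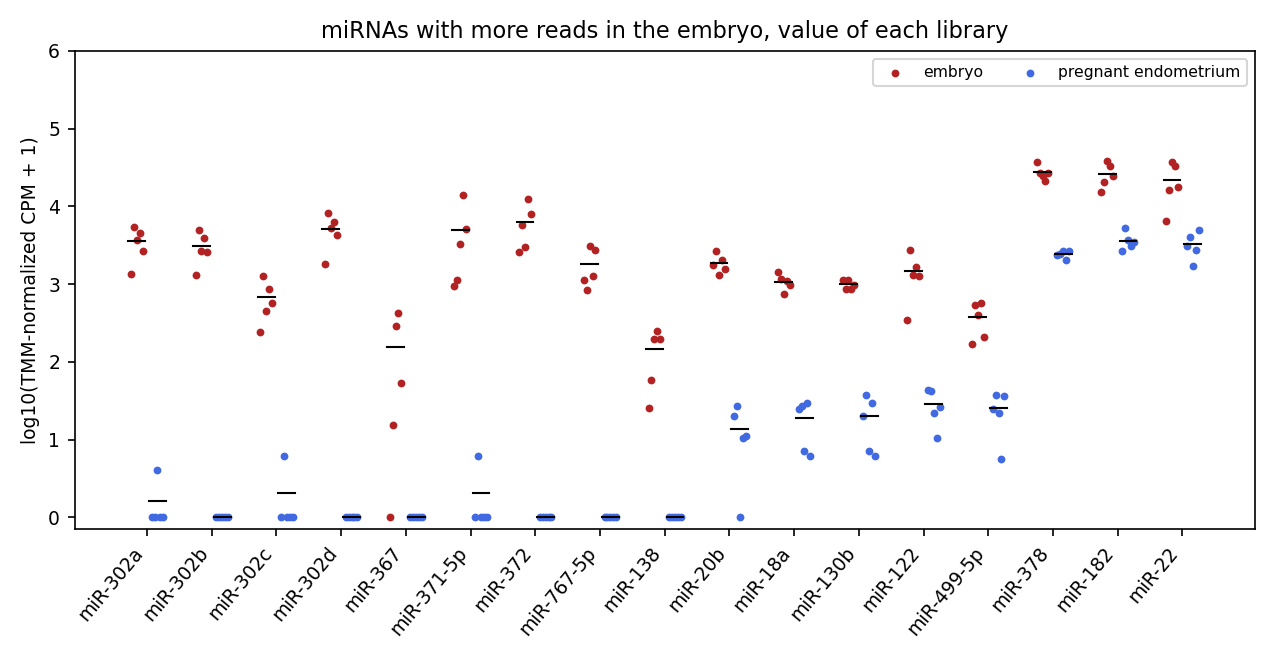
Log10(TMM-normalized CPM + 1) of 17 miRNAs in each embryo library (red) and each pregnant endometrium library (blue), with replicates 1 to 5 from left to right and a bar at the group mean. The 8 leftmost miRNAs and miR-138 had at most 1 read in the 5 endometrium libraries, and of those shown only miR-367 had an embryo without a read.

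The miR-17, miR-18 and miR-19 families were higher in the embryo for 5 of 6, 2 of 2 and 2 of 2 tested members, whereas the miR-25/miR-92/miR-363 family was divided. These miRNAs promote proliferation and, apart from miR-92b, come from 3 related clusters. The clusters are miR-17 to miR-92a, the X-linked miR-106a to miR-363, and miR-106b to miR-25. The miR-17 family itself has a seed related to that of miR-302. Of the 6 tested members of the miR-17/miR-20/miR-93/miR-106 family, 5 were called higher and none lower, with a median log2 fold change of 3.07. The most abundant, miR-93 and miR-20a, differed in size of change. Embryos had 5056, 5607, 3297, 4022 and 3231 CPM of miR-20a and endometrium 768, 778, 675, 789.8 and 638, without overlap (log2 fold change 2.54 ± 0.28, FDR 9.2e-06). The values of miR-93 were closer, 7438, 5071, 3763, 3595 and 4722 in embryos and 2582, 2903, 1977, 2788 and 1867 in endometrium (log2 fold change 1.02 ± 0.28, FDR 0.00667). Its fold lay at the threshold, and the call was lost without any single embryo without endometrium 3 or 5 and with the pregnancy as a block (0.99), with values without a library from 0.67 to 0.97. By contrast miR-20b of the X-linked cluster had 1774, 2666, 1308, 2045 and 1583 CPM in embryos and 18.8, 25.9, 0, 9.40 and 10.2 in endometrium (log2 fold change 7.14 ± 0.77, FDR 7.91e-06). Between these lay miR-106a, with 2607 ± 629.8 against 195 ± 31.7 CPM (log2 fold change 3.73 ± 0.33), and miR-17, with 2730.4 ± 626 against 223 ± 41.8 (3.61 ± 0.32). Read counts of miR-106a and miR-17 were closely similar in every library, as with 146 and 148 in embryo 1. The same reads may have been counted for both, so their calls may not be independent. The remaining member, miR-106b, was not called under TMM (0.50, FDR 0.186) or RLE, but was called higher with upper-quartile factors (1.32) and library totals (1.77).

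Both members of the miR-18 family were called. The endometrium held 23.6, 25.9, 6.08, 28.2 and 5.10 CPM of miR-18a against 1409.8, 1159, 753, 1079 and 968 in embryos (log2 fold change 5.86 ± 0.59, FDR 4.69e-06). For miR-18b, 29 reads spread over all 5 embryos and none in endometrium gave at least 38.5-fold, and embryo 3 held 14 of those reads. The miR-19 family rose less. For miR-19b, embryos had 3004 ± 808 and endometrium 861 ± 412 CPM (log2 fold change 1.80 ± 0.41, FDR 0.00241), and for miR-19a the log2 fold change was 2.29 ± 0.52 (FDR 0.00232). Within the miR-25/miR-92/miR-363 family the members went apart. The X-linked miR-363 had 48.6, 333, 717, 786 and 209 CPM in embryos and 4.71, 10.4, 3.04, 9.40 and 15.3 in endometrium (log2 fold change 5.51 ± 0.79, FDR 8.33e-05). In the other direction, miR-92b had 48.6, 43.5, 161, 135 and 183 CPM in embryos and 1884, 2592, 1901, 2651 and 622 in endometrium (log2 fold change -4.06 ± 0.57, FDR 7.07e-05). The 2 abundant members were not called under TMM. The log2 fold change of miR-92a was 0.62 (FDR 0.0657) under TMM, and it was called higher under the 3 other scalings, at 1.09 with RLE, 1.35 with upper-quartile factors and 1.95 with library totals. For miR-25 the values were -0.89 (FDR 0.00632) and 0.45, so its sign depended on the scaling, and it was called lower without embryo 1, 4 or 5 (-1.15, -1.03 and -1.22).

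Of the miR-130/miR-301 family, 4 of 5 tested members were called higher. Its members share their seed with miR-454, which is counted with them. Embryos had 1118, 869, 1129, 854 and 981 CPM of miR-130b and endometrium 18.8, 36.3, 6.08, 28.2 and 5.10 (log2 fold change 5.67 ± 0.60, FDR 6.46e-06). For miR-301b-3p the reads were 17 and 3, a ratio of 22.6 (95% interval 6.53 to 120.2), and its fitted log2 fold change moved from 4.12 to 4.71 without endometrium 3, which held 2 of the 3 reads. The values of miR-454 were 426 ± 66.3 and 67.6 ± 17.4 CPM (log2 fold change 2.64 ± 0.37) and those of miR-301a 219 ± 55.8 and 77.3 ± 44.1 (1.50 ± 0.47, FDR 0.0129). The fifth, miR-130a, did not pass, with 710.2 ± 245 in embryos and 1161 ± 417 in endometrium. Its log2 fold change was -0.71 under TMM and 0.64 with library totals, and it was called lower without embryo 4 (-1.12).

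All 3 members of the miR-183/miR-96/miR-182 cluster, known from sensory organs and epithelia, were called higher in the embryo. The values of miR-182 were 15046, 20326, 38491, 33077 and 24500.2 CPM in embryos and 2629, 5220.2, 3632, 3074 and 3465 in endometrium (log2 fold change 2.87 ± 0.31, FDR 8.42e-06). For miR-183, embryos 3 and 4 were highest, with 340.3, 377, 1684, 1820.1 and 719 against 75.4, 279.9, 57.8, 89.3 and 81.6 (log2 fold change 3.07 ± 0.66, FDR 0.00162), and 3.69 without endometrium 2. The third member, miR-96, overlapped between the groups, with 48.6, 130.4, 305, 764 and 301 against 37.7, 135, 82.1, 61.1 and 86.7 CPM (log2 fold change 1.93 ± 0.65, FDR 0.0189), and it was no longer called without embryo 4 (1.12) or with the pregnancy as a block (1.58, FDR 0.0685).

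Other abundant miRNAs of the embryo rose as well. The most even was miR-378, which lies in an intron of the metabolic coactivator gene PPARGC1B, with 36655, 27121, 24299, 21392 and 26829 CPM in embryos and 2369.6, 2462, 2671, 2049.6 and 2663 in endometrium (log2 fold change 3.48 ± 0.23, FDR 2.14e-07). Also higher was miR-22, at 6514, 16212, 37076, 32718 and 17554 against 3104, 4049, 1722, 2778 and 4898 (log2 fold change 2.73 ± 0.46, FDR 0.000293). For miR-16, a repressor of cyclins, the values were 30603, 62021, 37559, 38560.0 and 55227 and 12992, 18014, 13912, 11701 and 12149 (log2 fold change 1.70 ± 0.24, FDR 8.33e-05). Neural miR-9a was at 7359 ± 1667 CPM in embryos and 2418 ± 1074 in endometrium (log2 fold change 1.61 ± 0.34, FDR 0.00141).

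miRNAs of endoderm and liver were higher in the embryo for 3 of 3 tested members of a list of 4. The hepatic miR-122 had 340.3, 2753, 1290.2, 1663 and 1282 CPM in embryos and 42.4, 41.5, 21.3, 9.40 and 25.5 in endometrium (log2 fold change 5.67 ± 0.66, FDR 1.36e-05), with embryo 1 the lowest and embryo 2 the highest. For miR-192, a miRNA of gut and liver, the values were 754, 2898, 4068, 3909.9 and 1739.7 and 674, 612, 170.3, 306 and 500.0 (log2 fold change 2.56 ± 0.53, FDR 0.00126). Its partner miR-194 reached 232 ± 131 against 92.7 ± 25.1 CPM (log2 fold change 1.32 ± 0.45, FDR 0.0192), and its call was lost with the pregnancy as a block (1.22, FDR 0.0906) and without embryo 2 or 3 or endometrium 3 (1.13, 0.77 and 1.21). The untested miR-215 had 2 reads in the embryos and none in endometrium. Among muscle miRNAs, miR-499-5p, from an intron of a heart myosin gene, had 170.2, 536, 394, 562 and 209 CPM in embryos and 23.6, 36.3, 21.3, 4.70 and 35.7 in endometrium (log2 fold change 3.91 ± 0.59, FDR 0.000124). The main muscle miRNA, miR-1, was not called (log2 fold change 0.28 ± 0.67, FDR 0.718). Its endometrium value was 61.2, 20.7, 30.4, 23.5 and 209 CPM, with endometrium 5 far above the others, and without that library miR-1 was called higher at 1.25. With 3 or fewer embryo reads each, miR-133a and miR-206 were not tested.

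The let-7 family was lower in the embryo. It accumulates as cells differentiate, its maturation is blocked by LIN28 in early embryonic cells, and it represses growth genes such as HMGA2. All 7 tested members, miR-98 included, were called lower in the embryo under all 4 scalings, with a median log2 fold change of -6.40 under TMM and -5.07 with library totals. The most abundant, let-7a, had 2163, 1159, 4713, 4067 and 4709 CPM in embryos and 349008, 326987, 389688, 246165 and 209397 in endometrium (log2 fold change -6.50 ± 0.45, FDR 2.54e-07). For let-7c the values were 1556, 942, 2706, 2719 and 2394 and 234586, 209923, 271401, 131857 and 126820.0 (log2 fold change -6.56 ± 0.41, FDR 2.14e-07). For both, the lowest endometrium library lay far above the highest embryo. The other members had closely similar fold changes, -6.63 for let-7d, -6.39 for let-7e, -6.05 for let-7f, -6.40 for let-7g and -5.25 for miR-98. Mature let-7 sequences differ by few bases, and reads that fit several members may have been divided among them, so the family sum is the firmer value. Together they took 38.9 ± 6.80% of the endometrium reads and 1.15 ± 0.535% of the embryo reads. By library total, let-7a had a mean of 189700 CPM in pregnant and 190200 CPM in cyclic endometrium, and 21040 CPM in yolk sac fluid.

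**Figure D4:**
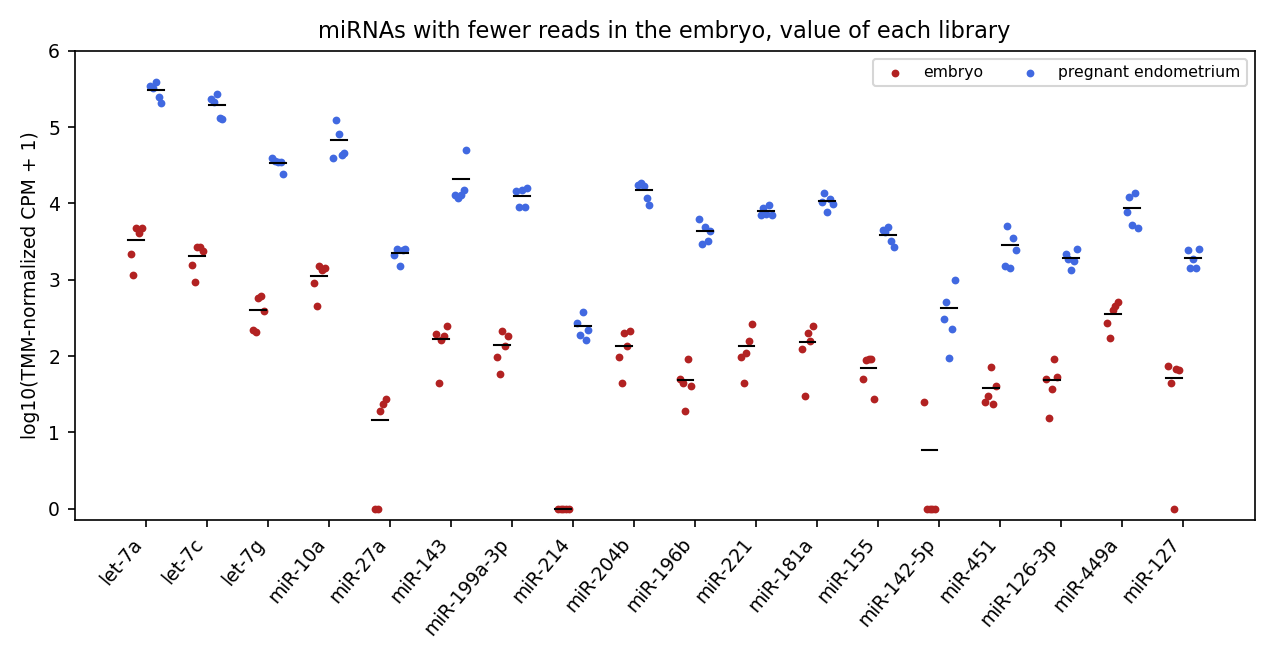
Log10(TMM-normalized CPM + 1) of 18 miRNAs in each embryo library (red) and each pregnant endometrium library (blue), with replicates 1 to 5 from left to right and a bar at the group mean. In each of the 18 the 5 endometrium values lay above the 5 embryo values, and miR-214 had no read in any embryo.

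Epithelial miRNAs did not move together. The miR-200 family represses ZEB1 and ZEB2 and keeps cells epithelial, and it comes from 2 clusters. It took 9.37% to 13.2% of the embryo reads and 4.92% to 7.21% of the endometrium reads. From the miR-200b/miR-200a/miR-429 cluster, miR-429 was called higher in the embryo, with 3889, 4274, 4408, 4989 and 3087 CPM against 1456, 2146, 1062, 2534 and 1857 (log2 fold change 1.19 ± 0.30, FDR 0.00428), although not without embryo 4 (0.93). The most abundant member, miR-200b, had 35099.7, 57921, 55640.3, 44874 and 48438 CPM in embryos and 24464, 33260.1, 26002, 27961 and 26344 in endometrium (log2 fold change 0.81 ± 0.19, FDR 0.00319). Its groups did not overlap, but its fold missed the threshold under TMM, while it was called higher under the 3 other scalings (1.29 with RLE, 1.70 with upper-quartile factors and 2.13 with library totals). The log2 fold change of miR-200a was -0.41 (FDR 0.11) under TMM and 0.88 with library totals. From the other cluster, miR-200c was called lower, with 10452, 6244, 4122, 4157 and 5350.0 CPM in embryos and 37475, 38247, 38519, 33974 and 30104 in endometrium (log2 fold change -2.56 ± 0.29, FDR 1.01e-05). Its partner miR-141 was at 681, 1188, 3727, 5078 and 1661 and 5564, 17195, 8215, 7150.1 and 21552 (log2 fold change -2.27 ± 0.58, FDR 0.00462), a call lost with upper-quartile factors (-1.36), library totals (-0.96) and thinned libraries (-1.21). In stratified epithelium miR-205 is abundant, and here it had 5 reads in embryos and 112 in endometrium. Of the 4 scalings TMM alone called it lower (log2 fold change -2.51 ± 0.91, FDR 0.0259), with -2.01, -1.76 and -1.30 under RLE, upper-quartile factors and library totals, and the call was also lost without endometrium 2 or 4 (-2.25 and -1.90).

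The miR-34/miR-449 family, which multiciliated cells need to form cilia, was lower in the embryo for 6 of 6 tested members, 5 of them under all 4 scalings. The endometrium had 7674, 12193, 5262, 13844 and 4776 CPM of miR-449a and the embryos 267, 174, 394, 449 and 510.1 (log2 fold change -4.60 ± 0.45, FDR 3.86e-06). The values of miR-34c were 4098, 6475, 3400.5, 7898 and 4225 and 24.3, 72.4, 197, 157 and 196 (log2 fold change -5.31 ± 0.55, FDR 6.01e-06). For both, endometrium 2 and 4 were the highest. The p53 target miR-34a changed less, with 147 ± 72.2 in embryos and 888 ± 351 in endometrium (log2 fold change -2.59 ± 0.48, FDR 0.00052). For miR-34b the 3p arm had a log2 fold change of -3.24 ± 0.47, and the 5p arm 2 reads in embryos and 366 in endometrium, a ratio of 46.0 (95% interval 12.6 to 381). The sixth, miR-449b, had 2 and 57 reads and lost its call with upper-quartile factors (-2.09) and library totals (-1.60).

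miRNAs listed for smooth muscle and stroma, mesenchyme and endothelium were lower in the embryo for every tested member. The smooth muscle miRNA miR-143 had 194, 43.5, 161, 179.8 and 249 CPM in embryos and 12974, 11705, 12915, 15118 and 50319.8 in endometrium (log2 fold change -6.96 ± 0.64, FDR 2.3e-06). Endometrium 5 was far above the others, and without it the log2 fold change was -6.33. Its cluster partner miR-145 had 1 read in embryos, in embryo 3, and 149 in endometrium, a ratio of 37.4 (95% interval 6.61 to 1488). Of the mesenchymal miR-199/miR-214 list, 5 of 5 were called. The endometrium had 14429, 9077, 15089, 8889 and 15782 CPM of miR-199a-3p and the embryos 97.2, 58.0, 215, 135 and 183 (log2 fold change -6.51 ± 0.43, FDR 2.14e-07). The 3p arms of miR-199a and miR-199b had nearly the same count in every library, so the reads of one cannot be told from those of the other. The 5p arms were scarcer. For miR-199b-5p, 650 endometrium reads stood against 1 in embryo 3, a ratio of 163 (95% interval 29.2 to 6456), and miR-199a-5p with 290 endometrium reads and none in embryos was at least 24.3-fold lower. Similarly miR-214, with 296 endometrium reads and none in embryos, was at least 24.8-fold lower. The endothelial miR-126, from an intron of EGFL7, was lower on both arms. The values of miR-126-3p were 48.6, 14.5, 35.8, 89.9 and 52.3 CPM in embryos and 2162, 1851, 1344, 1777 and 2510.4 in endometrium (log2 fold change -5.33 ± 0.49, FDR 2.3e-06), and miR-126-5p had a log2 fold change of -4.98 ± 0.52.

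Leukocyte and red blood cell miRNAs were lower in the embryo as well. All 5 tested leukocyte miRNAs were called under 4 scalings, and the list summed to 48.3 to 193 CPM by library total in embryos and to 2816 to 3474 in endometrium. For miR-155, needed for normal lymphocyte responses, embryos had 48.6, 86.9, 89.6, 89.9 and 26.2 CPM and endometrium 4452, 4209, 4930.4, 3215 and 2674 (log2 fold change -5.83 ± 0.44, FDR 5.1e-07). The pan-leukocyte miR-142-5p had 1 read in the embryos, in embryo 1, and 436 in endometrium, a ratio of 109.5 (95% interval 19.6 to 4334), with endometrium 5 highest at 989.9 CPM. At 0 reads in all embryos were miR-142-3p and the lymphocyte miRNA miR-150, at least 3.35-fold and 12.7-fold lower under TMM. With library totals these bounds were only 1.3-fold and 4.94-fold. Both miRNAs passed the filter through the endometrium alone, so their calls add little to the count of the list. The myeloid miR-223 had 3 and 543 reads, a ratio of 45.5 (95% interval 15.5 to 221), and 2 of those 3 were in embryo 3. The miR-146 family, induced by NF-κB, was called for 2 of 2 tested members, with 36.2 ± 13.4 against 1828 ± 869 CPM of miR-146b-5p (log2 fold change -5.65 ± 0.52, FDR 2.3e-06), and 2 reads of miR-146a, both in embryo 4, against 709. Red cell miRNAs summed to 112 to 314 CPM by library total in embryos and to 2674 to 11280 in endometrium, and 4 of 4 were called. With 0 embryo reads against 45, miR-144 was at least 3.77-fold lower under TMM, but only 1.46-fold with library totals. For miR-486-3p the reads were 1 and 98, a ratio of 24.6 (95% interval 4.3 to 982). The erythroid miR-451 had 24.3, 29.0, 71.7, 22.5 and 39.2 CPM in embryos and 1526, 5069.9, 1426, 3559 and 2459 in endometrium (log2 fold change -6.18 ± 0.56, FDR 2.24e-06), and the abundant miR-486-5p 72.9, 43.5, 71.7, 135 and 131 and 7208, 14582, 9012, 7531 and 1393 (log2 fold change -6.44 ± 0.65, FDR 4.75e-06). The part that blood in the biopsy had in the other differences was not tested.

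The miR-10 family was called lower in the embryo for both tested members. Together with miR-196a and miR-196b, which were added after their values were seen, these miRNAs lie within the HOX clusters, between the genes that pattern the body axis. For miR-10a, embryos had 899, 449, 1523, 1326 and 1439 CPM and endometrium 38935, 124440.0, 80541, 43408 and 46126 (log2 fold change -5.89 ± 0.49, FDR 1.13e-06). For miR-10b the embryos were less far below, with 3087, 9736, 12293, 11819.7 and 5415 against 36999, 63545, 53379.8, 17529.8 and 54172 (log2 fold change -2.41 ± 0.44, FDR 0.000477). For miR-196b the difference was large, with 48.6, 43.5, 17.9, 89.9 and 39.2 CPM in embryos and 6265, 2929, 4867, 3201 and 4347 in endometrium (log2 fold change -6.50 ± 0.48, FDR 3.71e-07), and -7.12 without embryo 4. By contrast miR-196a overlapped between the groups, with 97.2, 145, 89.6, 67.4 and 170.1 CPM in embryos and 815, 181, 751, 141 and 117 in endometrium (log2 fold change -1.79 ± 0.65, FDR 0.0259). Its call was lost under the 3 other scalings (-0.38 with library totals), with the pregnancy as a block (-1.36, FDR 0.118) and without endometrium 1 or 3 (-1.37 and -1.44). The miR-99/miR-100 and miR-125 families, which share transcripts with let-7 members, were called lower for 3 of 3 tested members each. Embryos had 40.9 ± 22.7 CPM of miR-99b and endometrium 509 ± 91.7 (log2 fold change -3.56 ± 0.45, FDR 3.21e-05), and miR-99a and miR-100 had 1 and 2 reads in embryos and 382 and 400 in endometrium, ratios of 95.9 (95% interval 17.1 to 3798) and 50.2 (95% interval 13.8 to 416). The values of miR-125a-5p were 0, 43.5, 53.8, 22.5 and 13.1 and 1715, 2182, 1576, 1058 and 1393 CPM (log2 fold change -5.81 ± 0.63, FDR 7.64e-06). For miR-125b-5p the log2 fold change was -6.17 ± 0.79, and -7.16 without embryo 1, while the scarce miR-125a-3p lost its call with library totals (-1.60).

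The miR-23/miR-27/miR-24 clusters, known from vessels and stroma, were called lower for 5 of 5 tested members. Among known miRNAs with a read in both groups, the largest fitted decrease was that of miR-27a, with 0, 0, 17.9, 22.5 and 26.2 CPM in embryos and 2092, 2514, 1529.9, 2473 and 2551 in endometrium (log2 fold change -7.26 ± 0.67, FDR 2.39e-06), and -7.88 without embryo 5. The near-identical miR-27b was abundant on both sides, at 1191, 2101, 4157, 3168 and 2249.9 and 28788, 46287, 35167, 30646 and 35804 (log2 fold change -3.78 ± 0.34, FDR 2.23e-06), so the 2 paralogs, which differ by few bases, fell by very different amounts. For miR-24 the values were 1094 ± 215 and 16226 ± 3813 CPM (log2 fold change -3.89 ± 0.28, FDR 3.03e-07), for miR-23b the log2 fold change was -4.38 ± 0.61, and for miR-23a -5.07 ± 0.73, or -5.77 without embryo 3. By library total, miR-27a had a mean of 1438 CPM in pregnant and 1582 CPM in cyclic endometrium.

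Several other conserved families of differentiated tissue were lower in the embryo. In the X-linked miR-221/miR-222 pair, which targets the receptor KIT, miR-221 had 97.2, 43.5, 108, 157 and 262 CPM in embryos and 7076, 8652, 7193, 9609 and 7148 in endometrium (log2 fold change -5.87 ± 0.47, FDR 7.93e-07), and -6.47 without embryo 5. Its partner miR-222 had a log2 fold change of -3.80 ± 0.69, or -4.40 without embryo 1. For miR-181a, a regulator of lymphocyte receptor signalling, the values were 122, 29.0, 197, 157 and 249 and 10406, 13628, 7719.6, 11353 and 9883 CPM (log2 fold change -6.12 ± 0.51, FDR 1.13e-06), and miR-181b changed by -5.78 ± 0.61. The value of miR-204b, related to the miR-204 of an intron of TRPM3, was 97.2, 43.5, 197, 135 and 209 CPM in embryos and 17270.0, 18564, 17112, 11762 and 9399 in endometrium (log2 fold change -6.75 ± 0.47, FDR 2.88e-07). Its relative miR-211 had no embryo read and was at least 8.96-fold lower. The collagen-targeting miR-29 family was called for 3 of 3, led by miR-29a with 170.2, 14.5, 17.9, 44.9 and 52.3 against 1588, 2364, 1338, 2054 and 4102 CPM (log2 fold change -5.30 ± 0.69, FDR 3.89e-05), where embryo 1 held the highest embryo value and the log2 fold change without it was -6.32. Without embryo 4, miR-29c moved from -4.26 to -4.99. The third member, miR-29b, had no embryo read and was at least 2.6-fold lower under TMM, but only 1.01-fold with library totals. The CREB-induced miR-132 and miR-212 had no embryo read and were at least 13.0-fold and 2.76-fold lower under TMM, but only 5.04-fold and 1.07-fold with library totals. For miR-101, which targets the histone methyltransferase EZH2, the values were 243, 985, 1147, 1483 and 680.2 and 4862, 5179, 7193, 4593 and 11373 CPM (log2 fold change -2.87 ± 0.47, FDR 0.00024).

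The imprinted DLK1-DIO3 locus carries one of the largest miRNA clusters of placental mammals, transcribed from the maternal allele. Of 53 listed members 43 had a read and 29 were tested, of which 24 were called lower, 15 under all 4 scalings, and none higher. The median log2 fold change of those tested was -3.17 with bounds in place of fits for 7 members, against -0.88 over all tested miRNAs. The whole list had 86 reads in embryos and 9766 in endometrium, which is 0.0506 ± 0.0369% and 0.53 ± 0.169% of reads. The most abundant, miR-379, had 24.3, 29.0, 17.9, 67.4 and 39.2 CPM in embryos and 2850.1, 1405, 2604, 1039 and 1918 in endometrium (log2 fold change -5.77 ± 0.51, FDR 2.02e-06), and -6.37 without embryo 4. For miR-127 the values were 72.9, 43.5, 0, 67.4 and 65.4 and 2483, 1436, 1892, 1424 and 2521 (log2 fold change -5.28 ± 0.64, FDR 2.04e-05). Of 10 embryo reads of miR-411, 9 were in embryo 4. On the X chromosome, the fast-evolving miR-506 family had 5 of 10 listed members with a read and none of those in embryos, and its 2 tested members were called lower under TMM but not with library totals, with TMM bounds of only 1.59-fold and 1.84-fold. With library totals the same 3 reads gave 0.618 and 0.715, so no fold above 1 could be stated, and both calls were also lost with the pregnancy as a block (FDR 0.0688 and 0.0501).

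A further set of families showed small differences whose sign or call depended on the scaling. The most abundant miRNA of the embryo, miR-21, had 92197, 140892, 73793, 72491 and 63324 CPM in embryos and 223963, 217336, 205420.0, 216793 and 224449 in endometrium, without overlap (log2 fold change -1.30 ± 0.22, FDR 0.000308). Of the 4 scalings TMM alone called it, with -0.80 under RLE, -0.41 with upper-quartile factors and 0.00026 with library totals. For miR-26a the values were 47014 ± 17276 and 135822 ± 26661 CPM (log2 fold change -1.53 ± 0.28, FDR 0.000458), a call lost with upper-quartile factors (-0.65) and library totals (-0.20). In the miR-30 family only miR-30e was called of 4, with 10476, 29801, 39513, 41256 and 18692 CPM in embryos and 9360.5, 13468, 9855, 10544 and 25594 in endometrium (log2 fold change 1.02 ± 0.41, FDR 0.0398). Endometrium 2, 4 and 5 lay within the embryo range, and the call was lost with the pregnancy as a block (0.98, FDR 0.0706) and without any of embryos 2 to 5 or endometrium 1 to 4, with values from 0.66 to 1.01. The log2 fold changes of miR-30b, miR-30c and miR-30d were -0.23, 0.02 and -0.51 under TMM and 1.06, 1.35 and 0.83 with library totals, where miR-30b and miR-30c were called higher. None of 3 members of the miR-103/miR-107 family, from introns of the pantothenate kinase genes, was called under TMM. Their log2 fold changes were 0.26 for miR-103, 0.35 for miR-107a and -0.81 for miR-107b, and 1.62, 1.71 and 0.54 with library totals. With library totals and upper-quartile factors miR-103 and miR-107a were called higher. Read counts of miR-103 and miR-107a were similar in every library, so the same reads may have been counted for both. Without embryo 2 or 5 miR-107b was called lower (-1.04 and -1.25).

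In the miR-148/miR-152 family, miR-148a was at 16443 ± 8655 CPM in embryos and 22640.0 ± 10954 in endometrium, with a log2 fold change of -0.46 under TMM and 0.84 with library totals. The guide arm miR-148b-3p differed by 0.16 ± 0.25, and by 1.46 with library totals, where it was called, and the minor arm miR-148b-5p was called higher, with overlapping values (log2 fold change 1.85 ± 0.45, FDR 0.00332). Beside miR-16, the miR-15/miR-16/miR-195/miR-497 family held the neighbours miR-195 and miR-497, which were lower. Embryos had 24.3, 0, 17.9, 44.9 and 26.2 CPM of miR-195 and endometrium 2431, 1856, 2467, 893 and 2219.5 (log2 fold change -6.45 ± 0.66, FDR 5.85e-06), or -7.08 without embryo 4, and miR-497 had 3 and 213 reads, a ratio of 17.8 (95% interval 6.02 to 87.1). Also called lower was miR-424, with 2 and 70 reads, but not with library totals (-1.77), while miR-15a, miR-15b and miR-503 were not called under TMM. With upper-quartile factors and library totals miR-15b (1.24 and 1.81) and miR-503 (2.25 and 2.77) were called higher, miR-503 also with RLE (1.77). The family held 1 member called higher and 3 lower, but 2 higher without endometrium 1 and 4 lower without embryo 2 or 3. Of the X-linked miR-362/miR-532/miR-500/miR-660 cluster, from an intron of CLCN5, 3 of 9 tested members were called higher and none lower. They were miR-188-5p (2.54 ± 0.63), miR-500 (1.82 ± 0.56) and miR-362-5p (1.75 ± 0.47). All 3 calls were lost with libraries thinned to the smallest one (1.72, 1.25 and 1.66, FDR 0.124, 0.203 and 0.125). The abundant miR-532-5p (0.71 ± 0.33) and miR-660 (-0.25 ± 0.37) were not called under TMM. Under the 3 other scalings miR-532-5p was called higher (1.19 with RLE, 1.64 with upper-quartile factors and 2.03 with library totals), and miR-660 with library totals (1.03). Without embryo 2 the cluster had 2 members called higher, and without embryo 4 it had 1 called lower. Among miRNAs often used as references, miR-191a was at 3083 ± 436 and 3149 ± 694 CPM (log2 fold change -0.03 ± 0.25, FDR 0.918), and was called higher at 1.31 with library totals. The arms of miR-423 gave 0.59 ± 0.32 for 3p, not called under TMM but called higher under the 3 other scalings (1.07, 1.40 and 1.93 with RLE, upper-quartile factors and library totals), and -1.25 ± 0.42 for 5p, called lower under TMM but not with the 3 other scalings, with the pregnancy as a block (-1.13, FDR 0.0789) or without endometrium 3 (-1.02). Other abundant miRNAs that were not called under TMM were miR-186 (-0.08 ± 0.36) and miR-151-5p (-0.07 ± 0.31), which were called higher with library totals (1.22 and 1.28), and the smallest called changes beside miR-93 and miR-30e included miR-149 (log2 fold change -1.10 ± 0.41, FDR 0.0299), a call kept under 11 of 23 alternatives and lost without endometrium 1 (-1.05) or 2 (-0.95).

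**Figure D5:**
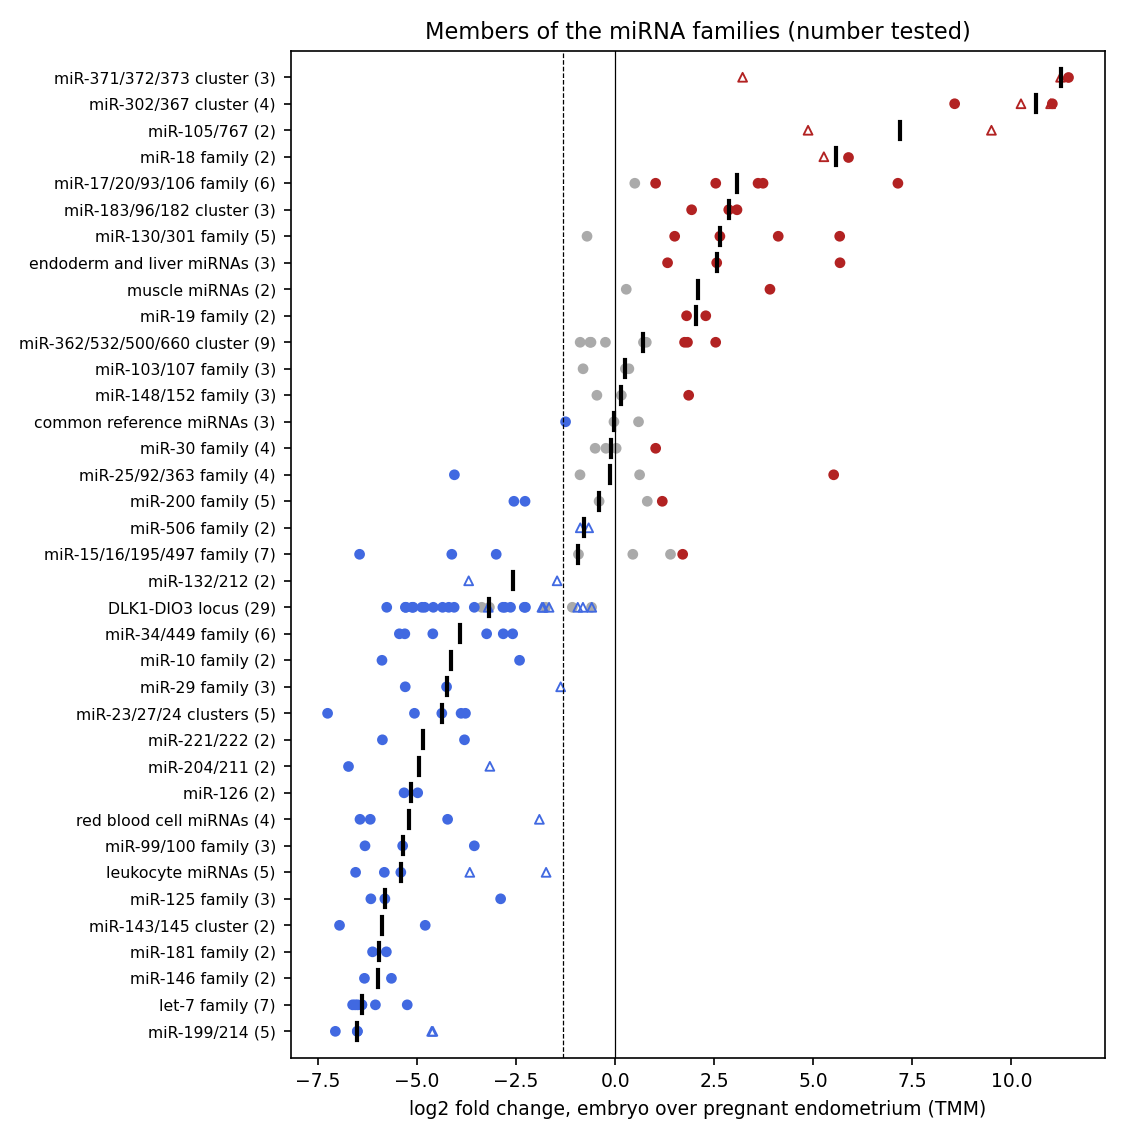
Log2 fold change, embryo over pregnant endometrium under TMM (horizontal axis), of each tested member of the miRNA lists with at least 2 tested members (number in brackets). Red and blue symbols were called higher and lower, grey ones were not called, triangles are bounds of members without a read in one group, and the black tick is the list's median. The solid line marks no change under TMM and the dashed line no change under library totals. The lists run from the miR-371/miR-372 and miR-302/miR-367 clusters at the top to let-7 and miR-199/miR-214 at the bottom.

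Hairpins that lie close together were grouped. In the RefSeq annotation of the horse, 253 of the 254 known tested miRNAs matched a gene, and 131 of them fell into 41 groups whose hairpins lay within 10000 bases of a neighbour. Of the 33 groups with at least 2 called members, 9 held only miRNAs called higher, 23 only miRNAs called lower and 1 both. For comparison, 69.4% of all called known miRNAs were lower, against which these counts are to be read, and 5 miRNAs stood in more than 1 group. The mixed group joined miR-200a, miR-200b and miR-429 with miR-3548, which had 1 read in embryos and 40 in endometrium. Neighbouring hairpins can share a transcript, which was not tested here. Some groups held both arms of a hairpin and some miRNAs match several positions, so these groups are a description.

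The use of the 5p and 3p arms could be compared for 6 hairpins with a mean of at least 20 reads over both arms in each group, after 0.5 was added to each count. Such a ratio is taken within a library and does not depend on scaling. Only miR-340 passed (exact two-sided permutation test, p = 0.00794, adjusted over the 6 hairpins 0.0476). The log2 ratio of its 5p to its 3p arm was -2.81, 0.46, 1.27, 1.70 and 0.66 in embryos 1 to 5 and 3.04, 2.59, 3.02, 3.72 and 5.31 in endometrium. Its 3p arm was higher in the embryo (log2 fold change 2.51 ± 0.46, FDR 0.00047), whereas its 5p arm had a log2 fold change of -0.17 ± 0.65 and was not called. The other 5 hairpins, miR-28, miR-148b, miR-423, miR-532 and miR-590, had adjusted exact permutation p-values of 0.0571 to 0.302. No hairpin passed without any one of embryos 2 to 5 or endometrium 1 to 4, while 3 hairpins passed without embryo 1 and 2 without endometrium 5. For 4 against 5 samples the smallest exact permutation p was 0.0159. With the adjustment over 6 hairpins, 1 hairpin alone could then not pass, so leaving out a library cannot tell whether the result for miR-340 holds.

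Predicted miRNAs, which the authors' pipeline proposed from the reads and which are written here as pred-miR- with their number in its table, were called higher for 47 of 105 tested and lower for 26, of which 7 under all 4 scalings. Many are copies with near-identical counts. The 105 fell into 46 groups of copies, of which 19 held the miRNAs called higher and 13 those called lower. For 28 of the 47, embryo 1 alone held at least 50% of the reads of the 5 embryos. The largest increase was that of pred-miR-133, with 16529, 435, 125, 44.9 and 445 CPM in embryos and 1 read in endometrium, a ratio of 2999 (95% interval 537 to 118600.0). Without embryo 1 its fitted log2 fold change moved from 10.94 to 7.11. More even were pred-miR-21, with 219, 289.8, 143, 427 and 301 CPM in embryos and no read in endometrium, at least 105-fold higher, and pred-miR-129, with 48 reads in embryos and 3 in endometrium, a ratio of 63.7 (95% interval 20.5 to 319.8). Lower in the embryo was pred-miR-131, at 35.6 ± 18.4 against 317 ± 154 CPM (log2 fold change -3.14 ± 0.59, FDR 0.000588). The miRNA pred-miR-136 was at 397 ± 152 against 1192 ± 481 (log2 fold change -1.59 ± 0.40, FDR 0.00435), a call lost with upper-quartile factors (-0.87) and library totals (-0.25). Without embryo 1, 56 known miRNAs were called higher and 127 lower, the same counts as with it, and 49 and 28 predicted ones. Of the 183 known and 73 predicted calls, 180 and 66 were made in the same direction without embryo 1, and none in the opposite direction.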

How the data were processed

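Small RNA libraries of embryonic tissue (n = 5) and pregnant endometrium (n = 5) were sequenced as single reads. Reads shorter than 17 bases or of quality below 20 were removed with cutadapt 1.11, per the submitters' processing notes, and mapped and counted with miRPro, using miRBase and EquCab2.0. The authors deposited raw read counts of known and predicted mature miRNAs, with no normalization, and how reads that match several miRNAs were divided is not given in the sources used here. The table of predicted precursors repeats the counts of the mature miRNAs and was not used. No miRNA sequences were used here.

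Both tables were joined, scaled by TMM and tested with edgeR 4.0.16 (quasi-likelihood) in R 4.3.3 after a filter of 1 CPM in at least 5 of the 10 libraries, with an FDR of 0.05 and a fold change of 2. Single values were compared with exact two-sided permutation tests (scipy 1.17.1). Where a group had no read, the bound set 3 reads over its 5 libraries, and 95% intervals of ratios are exact binomial, for counting error only. P-values measure the spread between these libraries. On simulated counts of this comparison, 200 miRNAs were changed by a log2 of 3, up or down at random, with a common dispersion. Of the changed miRNAs among the 369 tested, 75.8% were recovered. False calls made up 9.43% of the calls, above the FDR of 0.05. Since changes up and down were equally likely, the simulation does not cover the dependence on scaling. Alternatives covered scaling, test (DESeq2 1.42.0), filter, block, features, depth and each library left out.

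Members and lists were chosen with earlier results of these data known. Named miRNAs were the leading members of each family list (all members where at most 5 were tested), the 10 known and 3 predicted miRNAs of largest change per direction among those called without overlap at a mean of at least 100 CPM, the 10 most abundant known miRNAs of each group, the 3 smallest called changes and up to 10 uncalled known miRNAs of at least 1000 CPM. Further family members were named after their values were seen. Totals ranged from 28204 to 44768 reads in embryos and from 280065 to 590593 in endometrium.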

Additional observations from a re-analysis of the deposited data

Results flagged for a closer look

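A library was noted where, among the 5 of its group, the highest or lowest value lay apart from the others by more than Dixon's 95% critical value. This held for 25 of 240 groups of values, 10 in the embryo and 15 in pregnant endometrium. Chance gives about 1 in 20 where values are normally distributed. A group with reads in 1 library alone meets the rule by construction. Such groups were miR-142-5p, miR-145, miR-146a, miR-199b-5p, miR-486-3p and miR-99a in embryos. In endometrium they were miR-302a, miR-302c, miR-371-5p and pred-miR-133. With these among the 25, the count cannot show whether outliers exceeded chance.

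In embryo 1, pred-miR-133 was at 16530.0 CPM, miR-29a at 170.2 CPM, and miR-142-5p and miR-486-3p at 24.31 CPM each, all above the other embryos, while miR-301a was lowest at 121.5 CPM. In embryo 3, miR-145 and miR-199b-5p stood at 17.92 CPM each, the value of 1 read where the other embryos had none. In embryo 4, miR-146a at 44.94 CPM was highest and miR-24 at 719.1 CPM lowest. The single embryo read of miR-99a, 13.08 CPM, was in embryo 5.

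Endometrium 5 was highest for miR-143 (50320.0 CPM), a miRNA of smooth muscle, the muscle miRNA miR-1 (209.2), the endothelial miR-126-5p (4567), the mesenchymal miR-199a-5p (484.7), miR-29c (1260.0) and miR-30e (25590.0), and lowest for the red cell miRNA miR-486-3p (5.102). Endometrium 1 was highest for the lymphocyte miRNA miR-150 (221.4 CPM) and endometrium 2 for miR-183 (279.9). The only endometrium reads of miR-302c, miR-371-5p and pred-miR-133, at 5.184 CPM each, were in endometrium 2, and that of miR-302a, at 3.042 CPM, in endometrium 3. Endometrium 3 also had the largest total, 590593 reads, and the highest pred-miR-136 (2047 CPM).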

How the results depend on the processing

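With library totals the lower calls fell from 153 to 94. The share of higher among called miRNAs was 40.2% with TMM, 46.4% with RLE factors, 53.0% with upper-quartile factors, 59.8% with library totals and 53.2% with libraries thinned to 28204 reads, where 158 miRNAs were called and 74 of them were lower. A minimum count of 10 in the filter left 179 miRNAs tested and 140 called, 60 higher and 80 lower. Known miRNAs alone gave 63 higher and 125 lower. The likelihood ratio test called 263, DESeq2 208, the fit without a filter 262 of 477, the fit of all 28 libraries 255, the FDR alone 261 and copies counted once 219. Each library left out in turn gave 242 to 273 called, 96 to 110 higher and 140 to 164 lower, a difference in detected miRNAs of 30.5 to 37.8 at equal depth, and a difference in the share of the 10 most abundant of -13.7 to -8.72 percentage points. For known miRNAs alone the share differed by -5.33 points in place of -11.9. For known miRNAs alone, at the lower depth of 17953 reads, the difference in detected miRNAs was 7.01 and did not pass. The test of arm use passed 1 hairpin, and 4 with a pseudocount of 1. Leaving out a library in turn, which was added after the data were seen, gave 0 to 3, where 1 hairpin alone could not pass.

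The replicate number names the pregnancy, and as a block it gave 211 called, 71 higher and 140 lower. The deviations of an embryo and an endometrium library from their group means had correlations of -0.26, -0.0682, -0.022, -0.183 and -0.0521 for the same number, with a mean of -0.117 against 0.0292 for different numbers. Of the 5 embryos, 0 correlated best with the endometrium of its own number, so the block was not used for the main values. Among the named miRNAs it ended the calls of miR-93, miR-96, miR-149, miR-194, miR-30e, miR-423-5p, miR-506a and miR-509a-5p.

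Of the 127 named miRNAs 107 were called, and 84 of them kept direction and call under every alternative in which they were tested, 21 to 23 each. Scarce miRNAs were not tested under all alternatives, and 1 of these, the FDR alone, could not end a call. The sign of 3 called miRNAs turned under library totals, miR-21, miR-149 and miR-423-5p. The signs that turned under an alternative belonged to these and to miRNAs that were not called. With library totals, the log2 fold change was 0.54 for miR-107b, 0.64 for miR-130a, 0.84 for miR-148a, 0.23 for miR-149, 1.28 for miR-151-5p, 1.22 for miR-186, 1.31 for miR-191a, 0.88 for miR-200a, 0.0003 for miR-21, 0.45 for miR-25, 1.06 for miR-30b, 0.83 for miR-30d, 0.13 for miR-423-5p and 1.03 for miR-660. With libraries thinned to 28204 reads, the log2 fold change was 0.58 for miR-107b, 0.12 for miR-130a, 0.74 for miR-148a, 1.10 for miR-151-5p, 1.02 for miR-186, 0.81 for miR-191a, 0.45 for miR-200a, 0.35 for miR-25, 1.61 for miR-30b, 0.54 for miR-30d and 0.44 for miR-660. With upper-quartile factors, the log2 fold change was 0.051 for miR-107b, 0.043 for miR-130a, 0.39 for miR-148a, 0.80 for miR-151-5p, 0.80 for miR-186, 0.74 for miR-191a, 0.45 for miR-200a, 0.67 for miR-30b, 0.37 for miR-30d and 0.67 for miR-660. With RLE factors, the log2 fold change was 0.015 for miR-148a, 0.37 for miR-151-5p, 0.43 for miR-186, 0.46 for miR-191a, 0.098 for miR-200a, 0.26 for miR-30b and 0.29 for miR-660. With DESeq2, the log2 fold change was 0.014 for miR-148a, 0.37 for miR-151-5p, 0.43 for miR-186, 0.45 for miR-191a, 0.097 for miR-200a, 0.26 for miR-30b and 0.29 for miR-660. With the stricter filter, the log2 fold change was 0.31 for miR-151-5p, 0.33 for miR-186, 0.37 for miR-191a, 0.15 for miR-30b and 0.16 for miR-660. With known miRNAs alone, the log2 fold change was 0.0795 for miR-151-5p, 0.094 for miR-186 and 0.14 for miR-191a. With copies of predicted miRNAs counted once, the log2 fold change was 0.0057 for miR-151-5p, 0.087 for miR-186 and 0.086 for miR-191a. With all 28 libraries in 1 fit, the log2 fold change was -0.077 for miR-30c. Thinning also ended the calls of miR-19a, miR-92b, miR-99b, miR-222, miR-301a, miR-148b-5p and pred-miR-131. Among the further family members it ended those of miR-188-5p, miR-362-5p, miR-500, miR-34b-3p, miR-449b and miR-196a. When each library was left out in turn, the sign also turned in the range of miR-1 (-0.12 to 1.25), miR-103 (-0.19 to 0.31), miR-107a (-0.10 to 0.39), miR-148b-3p (-0.0608 to 0.23), miR-151-5p (-0.39 to 0.065), miR-186 (-0.42 to 0.21), miR-191a (-0.24 to 0.093) and miR-30c (-0.27 to 0.28). The cause was not tested.

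In embryos 1 read was worth 22.3 to 35.5 CPM by library total, so miRNAs below that level could be missed, and bounds for scarce miRNAs without an embryo read were low, 1.59-fold and 1.84-fold for the tested members of the miR-506 family. Neither tissue was sorted, so cell types cannot be told apart, and the tissue, the depth and the share of predicted miRNAs changed together.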

Other observations

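The spread among libraries was described for each group. Over the 192 miRNAs of at least 100 CPM in the mean, the median coefficient of variation was 51.6% in embryos and 35.7% in endometrium, at depths that differed between the groups. Rank correlations between libraries were 0.405 to 0.951 among embryos, with a median of 0.87, and 0.968 to 0.988 among endometrium libraries, with a median of 0.977. Between an embryo and an endometrium library they were -0.0644 to 0.414. The first principal component held 80.3% of the variance and the second 14.7%. Correlations are across miRNAs, which are not independent replicates, and libraries of a group share their tissue and depth range.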
